A study of Mus musculus with 2 samples.

Results

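Transcripts of 10 genes that restrain or carry ubiquitin signalling to NF-kB were examined in mouse bone marrow-derived macrophages after lipopolysaccharide (LPS). They were A20 (Tnfaip3), the 3 ABIN adaptors that bind it (Tnip1, Tnip2 and Tnip3), the deubiquitinase CYLD (Cyld), the inhibitory kinase homologue IRAK-M (Irak3) and 4 TRAF adaptors (Traf1, Traf2, Traf3 and Traf6). The genes were picked by name and role, and all 10 had an entry among the 16218 genes with a symbol. Each also reached a mean of 1 count per 1000000 counts of the library (CPM), as did 11662 genes in all.

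The TKO library came from C57BL/6J cells that lacked the microRNA clusters mir-106a~363 and mir-106b~25 (-/-) and were flox/flox for mir-17~92 together with Lyz2-Cre. The WT library came from C57BL/6J cells with Lyz2-Cre alone, so both genotypes carried the Cre, which is expressed from the lysozyme 2 locus in myeloid cells. Marrow was cultured for 5 days in DMEM with 10% FBS and 10% supernatant of L929 cells, which supplies macrophage colony stimulating factor, and the cells then received 10 ng/ml LPS for 3 h. Each genotype had 1 library of polyadenylated RNA, and the sources used here do not give the age or number of the mice. Differences therefore describe 2 libraries with no replicate check, the intervals cover counting error only, and genotype cannot be told apart from any other difference between these cultures.

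LPS binding to Toll-like receptor 4 brings MyD88 and IRAK kinases to TRAF6, a RING ubiquitin ligase whose chains recruit the TAK1 and IKK kinases and so release NF-kB. A20 and CYLD remove or edit such chains, and IRAK-M holds IRAK signalling back at the receptor. The ABIN-1 protein, encoded by Tnip1, binds ubiquitin and brings A20 to targets. The A20 gene is itself a classical NF-kB target, so that its transcript is part of a feedback loop in LPS-treated macrophages.

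In the TKO library the ABIN-3 gene Tnip3 was 1.89-fold lower (95% counting interval 1.82 to 1.96), the ABIN-2 gene Tnip2 1.54-fold lower (1.31 to 1.83) and Tnfaip3 1.21-fold lower (1.18 to 1.24). The ABIN-1 gene Tnip1 was 1.12-fold higher (1.10 to 1.15), Irak3 1.14-fold higher (1.07 to 1.204) and Cyld 1.10-fold higher (1.00 to 1.21). The 4 TRAF genes lay between 1.14-fold lower and 1.02-fold higher. Of the 10 genes, 2 were at least 1.5-fold lower with an interval excluding equality, a rule that 5.26% of all measured genes met, and 0 were 1.5-fold higher, a rule that 2.83% met. The median log2 ratio, taken as log2 of (TKO CPM + 0.5) over (WT CPM + 0.5), was −0.11 over the 10 genes and −0.04 over all measured genes.

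The sequences shown next are those through which the deleted microRNAs could in principle pair with these transcripts. The 3 clusters hold 15 microRNA genes, which fall into 4 families by seed, bases 2 to 8 of the mature strand. The miR-17 family has 6 of these genes, the miR-25/92 family 4, the miR-19 family 3 and the miR-18 family 2. One mature sequence of each family is given from RefSeq (GRCm38.p6), with the seed in capitals.
miR-17-5p: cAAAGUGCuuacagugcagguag
miR-18a-5p: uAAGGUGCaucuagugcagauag
miR-19b-3p: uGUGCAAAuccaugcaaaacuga
miR-92a-3p: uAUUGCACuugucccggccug

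A match was counted where the 7 bases opposite a seed occurred in the longest 3' UTR that GENCODE M21 (GRCm38, the mm10 assembly) annotates for the gene. The 10 genes held 11 matches in 7 genes, while 36.0% of all measured genes with an annotated 3' UTR held at least 1. The miR-19 family gave 5 of the matches, in Tnfaip3, Tnip1, Cyld, Traf2 and Traf3, and the miR-17 family gave 2, both in Cyld. Tnip3, Irak3 and Traf6 held 0 in those UTRs. The sites of the deubiquitinase genes and of the ABIN genes are shown because these genes include those farthest from equality. The 7 matched bases are in capitals, and the coordinates give those 7 bases. All lie in the last exon, in the 3' UTR.
Cyld, miR-19 site, chr8:88747199-88747205, plus strand: tttaataagaagcatTTTGCACtctaggaa
Cyld, miR-17 site, chr8:88748487-88748493, plus strand: ctgttatttttaaagGCACTTTactccttg
Cyld, miR-17 site, chr8:88749032-88749038, plus strand: tctgaagttggggtgGCACTTTgtgagtga
Tnfaip3, miR-18 site, chr10:19002068-19002074, minus strand: cgctctcggctgtatGCACCTTctagacag
Tnfaip3, miR-19 site, chr10:19001017-19001023, minus strand: agaaagtttgtgaaaTTTGCACagttgtct
Tnip1, miR-19 site, chr11:54910820-54910826, minus strand: gttgctaggcagccgTTTGCACaaatcttg
Tnip2, miR-18 site, chr5:34496135-34496141, minus strand: tttccaaaagggaaaGCACCTTtatttcct

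The libraries were of like depth, with 10836855 counts in TKO and 10764519 in WT. Their macrophage identity was checked with 8 markers, of which 0 were 1.5-fold apart, with Csf1r at 30290 counts in TKO and 27207 in WT. Of the 8 stromal markers measured, 5 lay 1.5-fold or more below WT in the TKO library, and the summed level of the 9 listed was 158 CPM in TKO and 400 CPM in WT, with none at 0 in either library. Of the 8 T and NK cell markers listed, only 4 had an entry, without the NK genes Ncr1 and Nkg7. These 4 summed to 8.58 CPM in TKO and 11.5 CPM in WT. By the 1.5-fold rule 1 of them, Lck, was lower (10 counts in TKO and 32 in WT) and 0 were higher. Neutrophil markers summed to 4.61 CPM in TKO and 4.83 CPM in WT, and B cell markers to 1.02 CPM in TKO and 1.39 CPM in WT. Of the 3 neutrophil markers measured, S100a9 was lower by the rule (8 counts in TKO and 21 in WT). The other 2 had positive log2 ratios short of the rule. Dendritic cell markers summed to 197 CPM in TKO and 36.4 CPM in WT. Of the 2 measured, Itgax was 6.89-fold higher and met the rule (2019 counts in TKO and 291 in WT). The other, Xcr1, did not meet it (90 counts in TKO and 84 in WT). Flt3 (11 in TKO and 9 in WT), Zbtb46 (12 and 5) and Siglech (3 and 3) fell short of a mean of 1 CPM. The part of these other transcripts in the results was not tested. In bulk RNA, fewer cells of a type cannot be told apart from less RNA per cell. The deleted microRNAs are not measured by such libraries, so the genotype labels were not checked here.

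Tnfaip3 (gene 21929, chromosome 10, 19000910 to 19015657, minus strand, GRCm38) encodes A20, which carries a deubiquitinase domain and zinc fingers that bind and conjugate ubiquitin. It had 12550 counts in TKO, or 259.8 FPKM (fragments per kilobase and per 1000000 reads, 95% counting interval 255 to 264), and 15124 counts in WT, or 315.0 FPKM (310.0 to 320). The TKO level was the lower, and the counting intervals of the 2 levels did not overlap. The log2 ratio was −0.28, with 20.5% of measured genes lower still. The log2 ratio stayed between −0.28 and −0.23 under 9 other ways of scaling and filtering, of which the abundance filters cannot change a single gene's ratio.

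Tnip1 (gene 57783, chromosome 11, 54910785 to 54962917, minus strand) encodes ABIN-1, a ubiquitin-binding adaptor that links A20 to the IKK subunit NEMO. It was the most abundant of the 10 genes per length in both libraries, with 16035 counts and 544 FPKM (535 to 552) in TKO and 14202 counts and 485 FPKM (477 to 493) in WT. TKO was the higher, again without overlap of the counting intervals, with a log2 ratio of 0.17. Because A20 and ABIN-1 transcripts differed in opposite directions, their relation shifted within each library, where no scaling between libraries enters. Per length there were 2.09 Tnip1 transcripts for each Tnfaip3 transcript in TKO and 1.54 in WT, and the ratio of these ratios was 1.36 (1.32 to 1.41).

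Tnip3 (gene 414084, chromosome 6, 65525313 to 65634040, plus strand) encodes ABIN-3, described in human cells as an LPS-inducible A20-binding protein. Whether mouse ABIN-3 acts as a brake was not tested. It had 4383 counts and 107 FPKM (103 to 110) in TKO and 8214 counts and 201 FPKM (197 to 205) in WT. This was the widest difference among the 10 genes, with a log2 ratio of −0.91, and 260 of the 11662 measured genes had a lower one. The ratio of Tnip3 to Tnip1 was 0.196 in TKO and 0.415 in WT, a 2.12-fold lower ratio in TKO (2.03 to 2.21). Under the 9 alternatives, which include those filters, the log2 ratio of Tnip3 lay between −0.92 and −0.87, each time past 1.5-fold.

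Tnip2 (gene 231130, chromosome 5, 34496087 to 34513991, minus strand) encodes ABIN-2, which binds A20 and, with the NF-kB precursor p105, stabilises the kinase TPL2. It was far scarcer, with 232 counts and 10.9 FPKM (9.56 to 12.4) in TKO and 356 counts and 16.9 FPKM (15.2 to 18.7) in WT. TKO was the lower, with a log2 ratio of −0.62, close to the 1.5-fold line at 0.58. With the 3 other scalings the ratio was −0.57 to −0.58 and fell short of that line, so its place among the 1.5-fold lower genes depended on the scaling. Set against Tnip1 in the same library, Tnip2 was 1.73-fold lower in TKO (1.47 to 2.05). The gene of TPL2 itself, Map3k8, picked with its value in view, had 866 counts in TKO and 1095 in WT, a log2 ratio of −0.35.

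**Figure D1:**
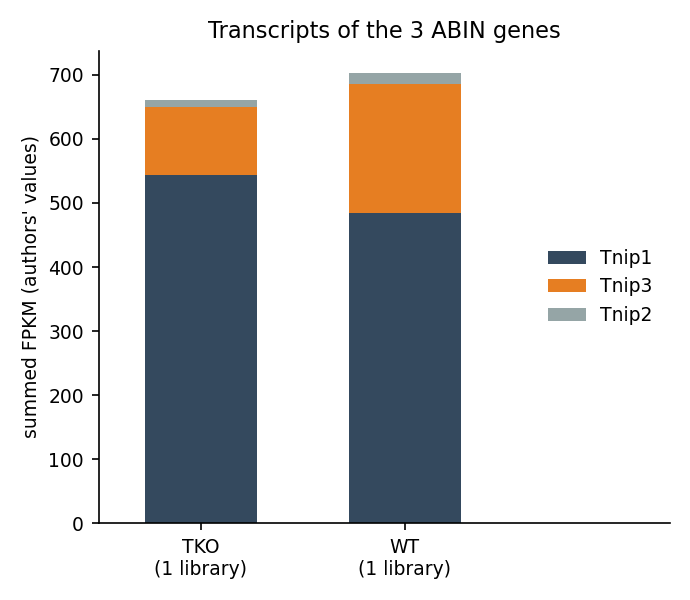
Authors' FPKM of the ABIN genes Tnip1, Tnip3 and Tnip2, stacked, for the TKO library (left) and the WT library (right), 1 library each. The totals are close, at 661 FPKM in TKO and 703 FPKM in WT, while Tnip3 makes up 16.1% of the TKO total and 28.6% of the WT total.

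Summed over the 3 ABIN genes, the level was 661 FPKM in TKO and 703 FPKM in WT. Tnip1 supplied 82.2% of this sum in TKO and 69.0% in WT, and Tnip3 16.1% in TKO and 28.6% in WT. The ABIN transcript pool was thus of like size in both libraries but held a smaller Tnip3 share in TKO.

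Cyld (gene 74256, chromosome 8, 88697028 to 88751945, plus strand) encodes a deubiquitinase that cleaves linear and other signalling chains and acts on TRAF2, TRAF6 and NEMO among others. It had 908 counts and 10.2 FPKM (9.59 to 10.9) in TKO and 817 counts and 9.34 FPKM (8.71 to 10.0) in WT. These level intervals overlapped, and the interval of the ratio only just excluded equality. The deposited estimates for Cyld were fractional (907.97 in TKO and 816.63 in WT), as happens where reads are divided among entries. Cyld was present at a small fraction of the A20 level: per length, Tnfaip3 exceeded it 25.3-fold in TKO (23.7 to 27.1) and 33.7-fold in WT (31.4 to 36.2).

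Irak3 (gene 73914, chromosome 10, 120141648 to 120202130, minus strand) encodes IRAK-M, which is induced in endotoxin tolerance and limits signalling by the other IRAK proteins. It had 2601 counts and 80.5 FPKM (77.5 to 83.7) in TKO and 2271 counts and 70.8 FPKM (67.9 to 73.7) in WT. TKO was the higher, without overlap of the intervals. An annotated antisense gene, Gm47009, overlaps 1 exon of Irak3, and since the strand setting is not given in the sources used here, its reads cannot be told apart from those of Irak3. The kinase homologue Irak2, which carries the late IRAK signal, differed in the same direction, with 2925 counts in TKO and 2214 in WT and a log2 ratio of 0.39. The ratio of Irak3 to Irak2 was therefore lower in TKO, at 0.961, against 1.11 in WT (1.15-fold, 1.07 to 1.25). Irak2 too was picked with its value in view.

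**Figure D2:**
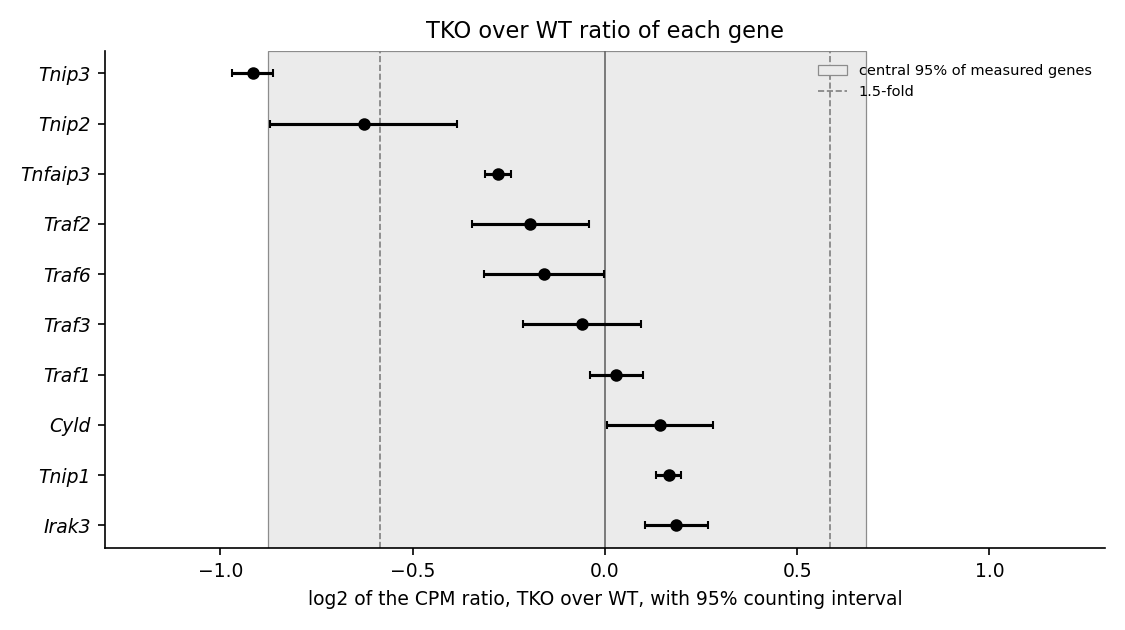
Log2 of the CPM ratio, TKO over WT, for each of the 10 genes, with its 95% counting interval. Dashed lines mark 1.5-fold and the grey band holds the central 95% of all measured genes (−0.88 to 0.68). Tnip3 lies just past the lower edge of the band and Tnip2 near the 1.5-fold line, while the TRAF genes, Cyld, Tnip1 and Irak3 stay near equality.

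Traf1 (gene 22029, chromosome 2, 34941750 to 34961772, minus strand) encodes the family member without a RING domain, which pairs with TRAF2 and is an NF-kB target. It had 3416 counts and 82.9 FPKM (80.2 to 85.7) in TKO and 3324 counts and 81.2 FPKM (78.5 to 84.0) in WT, a fold of 1.02 (0.973 to 1.07). The levels overlapped, and the estimates were fractional in both libraries. Traf2 (gene 22030, chromosome 2, 25517982 to 25546940, minus strand), which brings cIAP ligases to TNF receptors, had 666 counts and 20.1 FPKM (18.6 to 21.6) in TKO and 757 counts and 23.0 FPKM (21.4 to 24.7) in WT. It was 1.14-fold lower (1.03 to 1.27), with overlapping level intervals.

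Traf3 (gene 22031, chromosome 12, 111166370 to 111267153, plus strand) encodes the adaptor that keeps the kinase NIK low and takes part in interferon induction. It had 689 counts and 8.80 FPKM (8.16 to 9.48) in TKO and 713 counts and 9.15 FPKM (8.49 to 9.85) in WT, a difference within counting error. Traf6 (gene 22034, chromosome 2, 101678429 to 101701669, plus strand), the ligase downstream of the IRAK proteins, had 640 counts and 9.71 FPKM (8.97 to 10.5) in TKO and 710 counts and 10.8 FPKM (10.0 to 11.7) in WT. It was 1.12-fold lower (1.00 to 1.24), with overlapping level intervals. Relative to Traf2 in the same library, neither Traf3 (ratio of ratios 1.10, 0.948 to 1.27) nor Traf6 (1.02, 0.883 to 1.19) differed beyond counting error.

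Counting error alone left 8 of the 10 genes apart from equality, 3 higher and 5 lower in TKO. Among all measured genes 14.1% were higher and 20.2% lower by that rule, and among the 5408 genes with a mean CPM at least that of Tnip2, the lowest of the 10 on that scale, 22.4% were higher and 26.1% lower. With TMM scaling, 4 of the 10 were higher and 3 lower, because Traf2 and Traf6 then included equality and Traf1 (1.06-fold higher, 1.01 to 1.11) excluded it. The directions of the TRAF genes are therefore not read. The signs of Tnfaip3, Tnip1, Tnip2, Tnip3, Cyld and Irak3, and their exclusion of equality, held under each of the 3 other scalings.

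**Figure D3:**
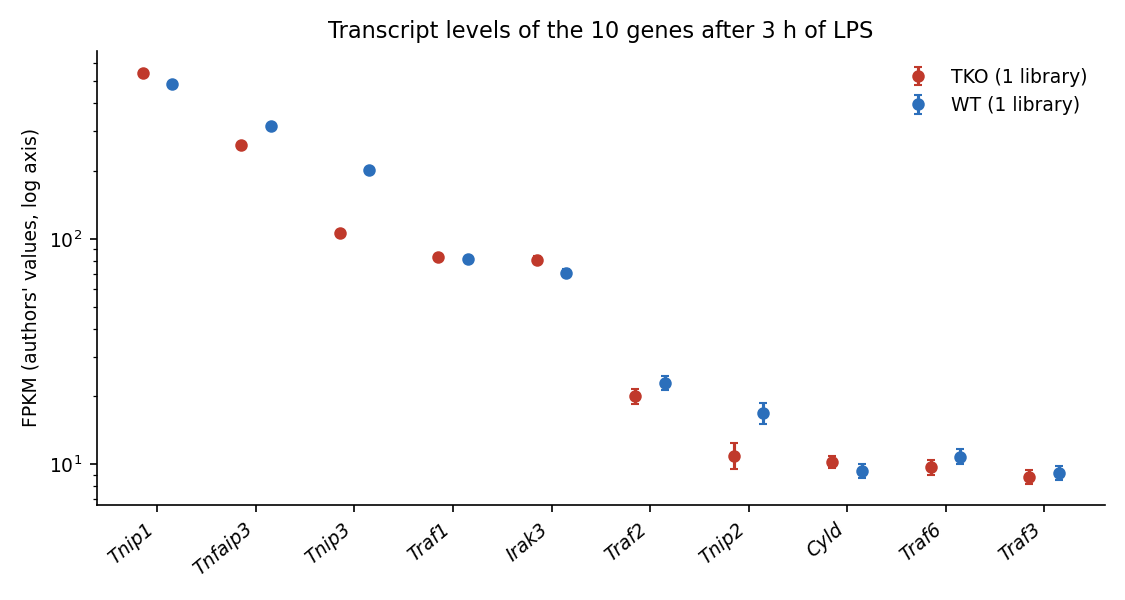
Authors' FPKM of each gene on a log axis, TKO (left point of each pair) and WT (right point), 1 library each, with 95% counting intervals. Tnip1, Tnfaip3 and Tnip3 are the 3 highest in both libraries, and Traf3 is lowest at 8.80 FPKM in TKO and 9.15 FPKM in WT.

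Levels per length spanned a wide range that both libraries shared. In TKO the order from high to low was Tnip1, Tnfaip3, Tnip3, Traf1, Irak3, Traf2, Tnip2, Cyld, Traf6 and Traf3. In WT it was the same except that Traf6 stood above Cyld. Traf1 and Irak3 did not differ beyond counting error in TKO (ratio 1.03, 0.978 to 1.08) but did in WT (1.15, 1.09 to 1.21). The 4 lowest genes in TKO could not be placed in order against their neighbours, since each neighbouring ratio included equality. In WT only the lowest pair, Cyld and Traf3, could not be separated (1.02, 0.922 to 1.13). Tnip3 stood 2.44-fold below Tnfaip3 in TKO (2.35 to 2.52) and 1.57-fold below it in WT (1.53 to 1.61).

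Few partners and opponents of these proteins met the 1.5-fold rule, by which 2.83% of all measured genes were higher and 5.26% lower. Counts in lists this short, here and below, therefore do not set these genes apart from others. Among 12 partners and other deubiquitinases, 0 were 1.5-fold apart and the median log2 ratio was 0.02. The farthest were Tnfaip8l2, an inhibitor of Toll-like receptor signalling, with 200 counts in TKO and 248 in WT (1.25-fold lower by CPM, log2 ratio −0.31), and the deubiquitinase gene Usp25, with 5061 counts in TKO and 4235 in WT (log2 ratio 0.25). Among 13 ubiquitin ligases and conjugating enzymes, 0 were 1.5-fold apart. Their median was −0.05, and the farthest were Peli3, a Pellino ligase gene with 40 counts in TKO and 52 in WT, and Ube2n, the conjugating enzyme that works with TRAF6, with 1168 counts in TKO and 1359 in WT (log2 ratio −0.23).

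Among 12 other TRAF and TRAF-binding genes, 0 met the 1.5-fold rule, and the median log2 ratio was −0.03, a sign that turned with TMM scaling (0.02). Traf3ip2, which encodes the IL-17 receptor adaptor Act1, had 201 counts in TKO and 280 in WT (log2 ratio −0.48). Traf4, at 8 counts in TKO and 15 in WT, showed no difference that this depth could detect. Among 18 genes of the IRAK, RIPK, TAK1 and IKK core, 1 was 1.5-fold higher and 0 lower, with a median of 0.04. The higher gene was Map3k14, encoding NIK, the kinase that TRAF3 restrains, with 97 counts in TKO and 62 in WT (1.55-fold, 1.12 to 2.17). It no longer met the rule with a pseudocount of 1 (log2 ratio 0.56) or with the authors' FPKM (0.49).

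Among 11 IkB and NF-kB subunit genes, 1 was 1.5-fold lower, 0 were higher and the median was −0.08. The lower gene was Bcl3, an atypical IkB protein of the nucleus, with 1416 counts in TKO and 2310 in WT (log2 ratio −0.71). The 3 genes of these lists with levels nearest to those of Tnfaip3 in both libraries, by distance in log2 CPM over 75 candidates, were Nfkb1, Tnip1 and Nfkbia. Nfkb1 had 14015 counts in TKO and 12422 in WT (log2 ratio 0.16), and Nfkbia, encoding the classical inhibitor IkB-alpha, 10063 counts in TKO and 13054 in WT (log2 ratio −0.38). With 2 libraries this is a likeness of level. Nfkb1 and Tnip1 had positive log2 ratios, and only Nfkbia shared the negative direction of Tnfaip3 (−0.28).

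**Figure D4:**
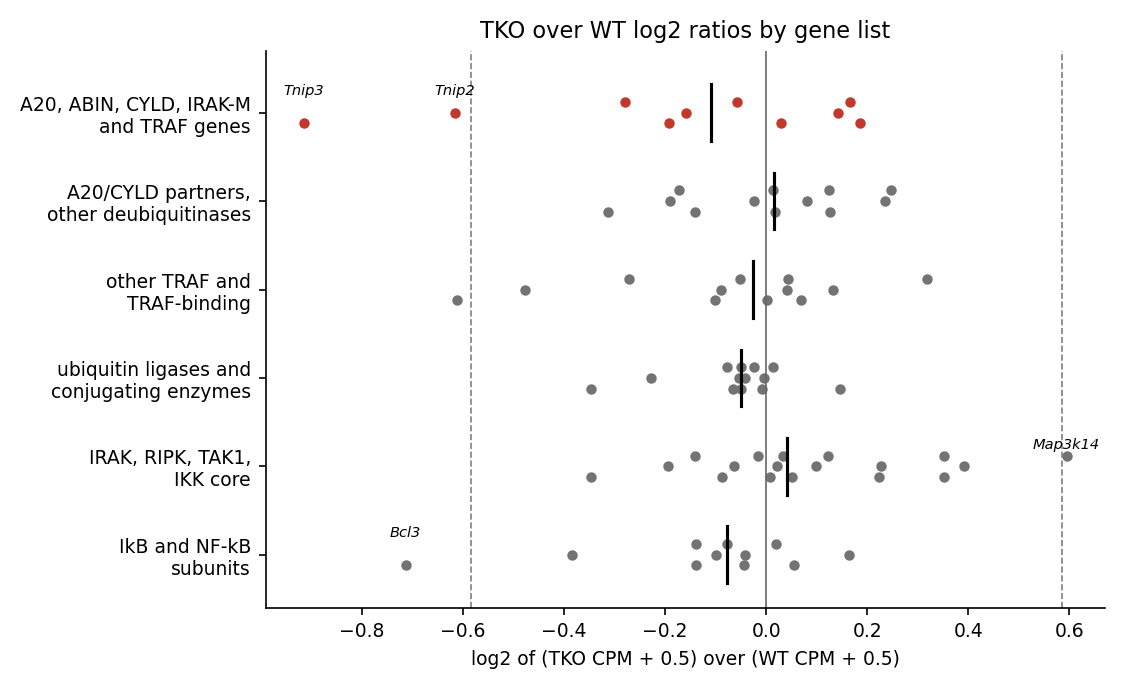
Log2 of (TKO CPM + 0.5) over (WT CPM + 0.5) for the measured genes of each list, 1 point per gene, with the list median as a black bar and 1.5-fold as dashed lines. Named genes met the 1.5-fold rule: Tnip3, Tnip2 and Bcl3 were lower and Map3k14 was higher, while Traf4, at 8 counts in TKO and 15 in WT, lies past a line but has an interval that includes equality.

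The seed matches printed earlier were set beside these values as a description. Among 11150 measured genes with an annotated 3' UTR, 36.0% had at least 1 match of any of the 4 families, and their median log2 ratio was −0.01, against −0.06 for genes without a match. The miR-17 site occurred in 15.5% of genes, the miR-19 site in 14.2%, the miR-18 site in 10.4% and the miR-25/92 site in 8%. Cyld held 3 matches in a UTR of 4932 bases, where genes with a UTR within a factor of 0.8 of that length had a median of 1, and its log2 ratio was 0.14. Tnfaip3 held 2 in 1821 bases, against a median of 0 for UTRs of like length, and was lower in TKO. Tnip1, with 1 match in 752 bases, was higher, and Tnip2, with 1 in 600 bases, was lower. Tnip3, the gene farthest from equality, held 0 in 2932 bases, where 58% of genes with UTRs of like length held at least 1.

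The remaining matches lay in Traf1 (1, of the miR-18 family), Traf2 (1, miR-19) and Traf3 (1 of miR-25/92 and 1 of miR-19), whose ratios were close to equality. Irak3 and Traf6, with 0 in the longest UTR, had log2 ratios of 0.19 and −0.16. For Irak3 this 0 depended on the form, since another of its annotated UTRs held 1 match. Its longest UTR, of 1504 bases, belongs to a transcript of 2473 bases, shorter than the deposited gene length of 2969 bases. The 0 counts given for Irak3 may therefore not describe its main form. Of the 7 genes with a match, Cyld and Tnip1 had a positive log2 ratio and Tnip2 and Tnfaip3 a negative one. The directions of Traf1, Traf2 and Traf3 are not read, so these signs were not counted for or against a link with the matches. Of the 11 matches, 5 were followed by A, which extends the site to 8 bases. These were the miR-19 sites of Tnfaip3, Tnip1, Traf2 and Traf3 and the miR-17 site of Cyld at base 1474 of its UTR. The gene-level counts do not show which UTR form was expressed, and Cyld is also annotated with a UTR of 1436 bases that ends before both miR-17 sites. The same UTRs held AUUUA pentamers, the core of AU-rich decay elements. Cyld held 12 (median 8 for UTRs of like length), Traf6 11 (6) and Tnfaip3 5 (2). The others were at or below that median: Traf1 3 (3), Traf3 3 (8), Tnip3 3 (4), Traf2 1 (2), Tnip2 1 (1), Tnip1 0 (1) and Irak3 0 (2).

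**Figure D5:**
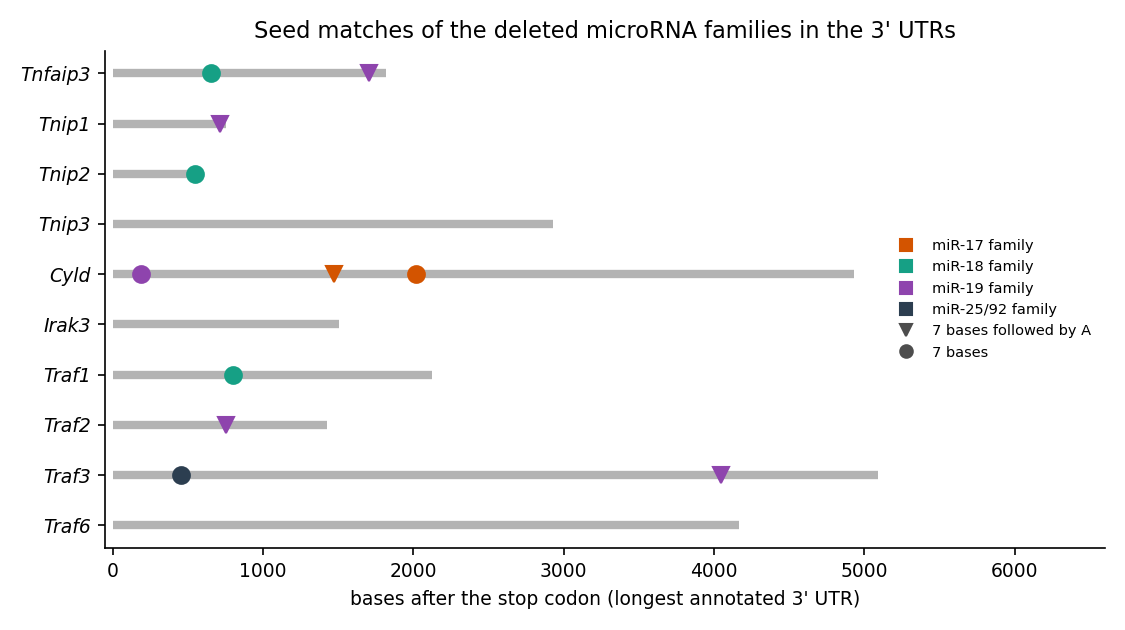
Longest annotated 3' UTR of each gene as a grey bar, in bases after the stop codon, with seed matches of the 4 deleted microRNA families by colour. Triangles mark matches followed by A and circles the others; Cyld holds 3 matches and Tnip3, Irak3 and Traf6 hold 0.

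Since A20 is an NF-kB target, the RefSeq promoter windows (GRCm38.p6, 250 bases before to 50 after each start) were searched on both strands for the 10-base kB consensus, here GGG, A or G, any base, TT, C or T, and CC. A place that matched on both strands was counted once. A match was found for 5 of the 10 genes, Tnfaip3, Tnip1, Tnip3, Cyld and Traf3, against 2.48% of 9030 measured genes with a window. The 10 genes were picked by role and include NF-kB targets, so the contrast may follow from that choice and was not tested. The windows of Tnip2, Irak3, Traf1, Traf2 and Traf6 held none. Tnfaip3 also had a window at chr10:19011914-19012213, which held none. The Tnip3 window, chr6:65590148-65590447, lies inside the gene span given above, so its start is not the outermost annotated one. The start in the Tnfaip3 window with the match, chr10:19015361-19015660, also lies inside the gene span, which ends at 19015657. The matched bases of Tnfaip3 are therefore inside that span too. Each match is in capitals, on the strand of the gene, with the coordinates of its 10 bases.
Tnfaip3, 12 bases before the start, chr10:19015413-19015422, minus strand: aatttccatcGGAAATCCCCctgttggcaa
Tnip1, 57 bases before, chr11:54962988-54962997, minus strand: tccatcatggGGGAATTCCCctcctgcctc
Tnip3, 54 bases before, chr6:65590344-65590353, plus strand: gagacatcctGGGAAATCCCagttacatgg
Cyld, 155 bases before, chr8:88696873-88696882, plus strand: ttgaccgagcGGAAAGTCCCttcagccagc
Traf3, 10 bases before, chr12:111166360-111166369, plus strand: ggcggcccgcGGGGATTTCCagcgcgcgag
The 3 most abundant of the 10 genes, Tnip1, Tnfaip3 and Tnip3, all held a match, and their log2 ratios were 0.17, −0.28 and −0.91. Cyld and Traf3, which also held a match, were among the least abundant, so within these 10 genes a match went with neither 1 level nor 1 direction.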

How the data were processed

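The 10 genes and the comparison lists were chosen with earlier results of these data known. Estimated counts per gene and FPKM values, in which 0.01 stands for 0, were deposited by the authors. Per the submitters' processing notes, which give no roles, RSEM 1.2.12, Bowtie2 2.2.5 and HISAT2 2.0.4 were used with mm10. Annotation, filters and strand setting are not given in the sources used here. In the same table the deposited log2 ratio, p-value and adjusted score compare the 2 libraries and were not used for any value, and the deposited gene length, in bases, was used only through FPKM.

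Estimated counts were rounded to whole numbers (79.4% were whole in TKO and 79.2% in WT). The 1 entry without a symbol (9.23e-06% of TKO and 9.29e-06% of WT counts) was left out. CPM used the library totals, 10836855 for TKO and 10764519 for WT. A gene counted as measured from a mean of 1 CPM upwards. Folds are ratios of CPM with 95% exact conditional binomial (Clopper-Pearson) intervals, levels have exact Poisson intervals of the count, and ratios of ratios have normal intervals on the log scale. They cover counting error only, since PCR copies cannot be told from separate molecules without identifiers. The 1.5-fold rule needs a log2 ratio (0.5 CPM added to each) past 0.58 in size and an interval excluding equality. No test was possible with 1 library per group, and no p-value was computed. The interval and the rule were tried on simulated Poisson counts, which hold counting error only and so cannot test them against differences between cultures.

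Genes named beyond the 10 were those past the 1.5-fold rule in each list, or the 2 farthest from equality where none was past it, and the 3 nearest to Tnfaip3. Any other is said to be chosen after its value was seen. Alternatives were TMM (edgeR 4.0.16), median-of-ratios and upper-quartile scaling, the authors' FPKM, pseudocounts of 0.1 and 1, unrounded estimates, no abundance filter and a mean of at least 10 CPM. UTRs came from GENCODE M21 transcripts, and promoters and microRNAs from RefSeq tables of GRCm38.p6. All 10 genes matched these tables. Work was done in Python 3.11.15 with scipy 1.17.1.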

Additional observations from a re-analysis of the deposited data

How the results depend on the processing

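With 1 library per genotype, replicate error is unknown and depth limits only counting error. No sign of the 10 genes turned under the 9 alternatives, and their median log2 ratio, −0.11, lay between −0.06 and −0.11. The abundance filters among these alternatives cannot change a gene's ratio, and unrounded estimates leave whole counts as they are. The number of the 10 genes at least 1.5-fold lower, 2 as reported, was 1 with TMM, median-of-ratios and upper-quartile scaling. With these scalings Tnip2 (−0.57, −0.58 and −0.58) fell short of the line. The number lower was 0 at 2-fold and 3 at 1.2-fold, and 0 genes were higher at any of these. These scalings moved the median of all measured genes by 0.03 to 0.05. The 1 gene of the IRAK, RIPK, TAK1 and IKK core that was 1.5-fold higher became 0 with the authors' FPKM, with a pseudocount of 1 and among genes averaging 10 CPM or more. The share of all measured genes at least 1.5-fold higher, 2.83%, was 3.30% with TMM, 3.16% with median-of-ratios and 3.15% with upper-quartile scaling, 2.40% with FPKM, 2.33% without a filter and 2.12% at 10 CPM. At 1.2-fold it was 8.15% and at 2-fold 1.02%. The share lower, 5.26%, was 4.52%, 4.74% and 4.75% under those scalings, 4.19% with FPKM, 4.78% with a pseudocount of 1, 4.37% without a filter and 3.11% at 10 CPM. At 1.2-fold it was 13.5% and at 2-fold 1.68%. The 11 seed matches became 7 with the UTR of fewest matches per gene and 12 with the UTR of most. They became 5 with 8-base sites and 36 with 6-base sites, as longer or shorter words imply. No paired analysis was possible because each group had 1 library and no replicate number.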
